A study of Mus musculus with 6 samples.

Results

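Intermediate filament genes of mouse airway smooth muscle cells (ASMC) that had shared a transwell plate with airway epithelial cells were compared with those of ASMC cultured without them. The set holds 8 of the 17023 genes in the deposited gene table: the type III filament genes Vim and Des, Nes and Synm, the linker Plec, and the simple keratin genes Krt18, Krt19 and Krt8. They were chosen by gene symbol, and the set was selected on the measured counts of the same co-culture and control libraries, so their values are given as a description with no test. Of the 8 genes, 5 (Vim, Plec, Synm, Nes and Krt18) passed the filter on low counts and 3 (Des, Krt19 and Krt8) did not.

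The study sequenced RNA of primary wild-type (WT) mouse lung ASMC after 5 days in transwell plates, which hold 2 cell populations in separate chambers joined by a porous membrane. The co-culture group (n = 3) shared the plate with mouse airway epithelial cells, and the control group (n = 3) did not. Both groups are primary WT cells that the labels call smooth muscle cells, and the labels do not say whether the replicates were separate cultures or separate animals, so the spread between them may be technical. Bulk RNA was measured, so that fewer cells of a type and less RNA per cell cannot be told apart.

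Libraries held 17496056 to 18496623 estimated counts, which are read numbers per gene that need not be whole. Levels are given as CPM, the counts per 1000000 of library size after scaling by TMM factors, or as FPKM. FPKM divides by gene length and by the total count without TMM factors, and allows levels of different genes to be compared. Control library 4 stood apart: its TMM factor was 0.8855, against 1.0005 and 1.0098 in control libraries 6 and 5 and 1.0368 to 1.0388 in the co-culture libraries. Its count-weighted mean gene length was 3184 bases, against 3588 to 3703 bases in co-culture libraries and 3721 and 3788 bases in control libraries 5 and 6. Differences are therefore also given without it. Over all genes tested, the log2 fold change had a median of -0.041, and 0.008 without control library 4. Smooth muscle markers were detected: the 12 marker genes summed to 700.0 to 799 CPM in co-culture and 912 to 978 CPM in control libraries, with Cald1, Smtn and Mylk highest. Of the 12, all tested, 1 rose (Myocd), 4 fell (Acta2, Tagln, Cnn1 and Cald1) and 7 did not pass by edgeR's quasi-likelihood test. Over all genes tested, 10.3% were called higher and 10.3% lower, 20.6% in either direction. Without control library 4, 3 of the 12 rose and 7 fell, and over all genes 2445 were higher and 2598 lower. Mylk and Tpm2 then also rose, and Myh11, Smtn and Actg2 also fell. Myocd, which encodes the smooth muscle coactivator myocardin, had 0.802 ± 0.0305 CPM in co-culture and 0.114 ± 0.00823 CPM in control (SD, n = 3 each), a log2 fold change of 2.75. The calls of Cnn1 and Cald1 were lost when single libraries were left out, with an edgeR adjusted p of up to 0.143 and 0.0640. Acta2, the smooth muscle actin, had 78.9, 47.0 and 54.9 CPM in co-culture libraries, against 152, 125 and 131 CPM in control libraries. Myh11, the smooth muscle myosin heavy chain that marks mature cells, lay at only 0.827 to 0.962 CPM in co-culture and 0.680 to 1.54 CPM in control libraries. Fibroblast markers were abundant, with Col1a1, Col3a1 and Pdgfra the highest. The 10 genes summed to 7266 to 7998 CPM in co-culture and 7946 to 10168 CPM in control libraries. Of 8 tested, 1 rose (Dpt), 2 fell (Col14a1 and Tcf21) and 5 did not pass. Without control library 4, 3 rose and 4 fell. Col14a1 had 5.19 ± 0.715 CPM in co-culture and 39.2 ± 7.55 CPM in control, a log2 fold change of -2.92. Dpt had a log2 fold change of 0.98. The Tcf21 call was lost when single libraries were left out.

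Intermediate filaments are rope-like polymers of the cytoskeleton that resist mechanical strain. Vimentin is the filament protein of mesenchymal cells and desmin that of muscle cells, whereas synemin and nestin do not form filaments alone and are built into vimentin or desmin filaments. Keratins assemble as pairs of a type I and a type II chain, Krt18 and Krt19 being type I and Krt8 type II, and are typical of simple epithelia. Plectin, a giant plakin, ties intermediate filaments to one another, to actin and to adhesion sites.

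The 250 bases before the start of 6 of the 8 genes were read from a RefSeq promoter table of build GRCm38.p6, and 4 are shown because they belong to members that differed in opposite directions: Vim and Synm were higher in co-culture, Nes and Krt18 lower. Sequences run 5' to 3' on the strand of the gene. Capitals mark matches on either strand to 4 motifs: TATAAA (the TATA box), CCAAT (bound by NF-Y), GGGCGG (the GC box of Sp factors) and GCGTG (a core form of the hypoxia response element). The AP-1 motif TGANTCA and the CArG box of serum response factor were also searched, and no match overlapped another.
Vim, chr2:13574061-13574310, plus strand: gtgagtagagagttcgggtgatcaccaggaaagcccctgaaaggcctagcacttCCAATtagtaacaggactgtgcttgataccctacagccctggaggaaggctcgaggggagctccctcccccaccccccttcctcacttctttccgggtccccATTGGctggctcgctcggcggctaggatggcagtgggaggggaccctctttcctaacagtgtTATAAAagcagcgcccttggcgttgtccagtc
Synm, chr7:67759743-67759992, minus strand: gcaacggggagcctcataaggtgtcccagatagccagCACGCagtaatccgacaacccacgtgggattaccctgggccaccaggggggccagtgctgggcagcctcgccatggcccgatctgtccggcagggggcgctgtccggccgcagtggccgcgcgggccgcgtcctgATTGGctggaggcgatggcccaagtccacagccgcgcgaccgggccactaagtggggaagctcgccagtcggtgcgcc
Nes, chr3:87970843-87971092, plus strand: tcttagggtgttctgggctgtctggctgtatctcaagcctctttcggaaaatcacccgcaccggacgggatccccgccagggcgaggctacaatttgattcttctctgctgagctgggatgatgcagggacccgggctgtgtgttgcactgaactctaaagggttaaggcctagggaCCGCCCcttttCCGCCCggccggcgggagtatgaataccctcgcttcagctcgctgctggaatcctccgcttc
Krt18, chr15:102027966-102028215, plus strand: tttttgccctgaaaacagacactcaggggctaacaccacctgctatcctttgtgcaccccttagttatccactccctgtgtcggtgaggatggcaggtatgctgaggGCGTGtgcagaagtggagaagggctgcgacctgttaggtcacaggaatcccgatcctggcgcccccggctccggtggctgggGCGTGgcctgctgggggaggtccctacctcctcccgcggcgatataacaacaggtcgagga
The Vim window held TATAAA 32 bases before the start and CCAAT 196 and 94 bases before it. The Synm window held CCAAT at 78 bases and GCGTG at 213. That window lies before the start of the GENCODE transcript Synm-201 at 67759742. Most Synm counts, 52.3% to 73.2% by library, were assigned to a start further downstream at 67759693, though such a division of reads is uncertain. The Nes window held GGGCGG at 73 and 62, and the Krt18 window GCGTG at 143 and 61. The Des window, which is not shown, held GGGCGG at 87 and 69. Among 32851 windows of the same length, the TATA box was found in 12.4%, the CCAAT motif in 33.8%, the GC box in 32.7%, the GCGTG motif in 28.2%, the AP-1 motif in 6.75% and the CArG box in 1.47%. The AP-1 motif and the CArG box had no match in any of the 6 windows, and no motif had one in the Krt8 window. Such matches describe letters in these windows only.

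Vim (chr2:13574311-13582826), which encodes vimentin, was by far the most abundant of the filament genes and was higher in co-culture. Its level was 3874, 4124 and 3854 CPM in co-culture libraries, against 2246, 2562 and 2598 CPM in control libraries 4 to 6. Every co-culture library lay above every control library. The mean was 3950.3 ± 150.4 CPM in co-culture and 2468 ± 194 CPM in control (SD, n = 3 each), a log2 fold change of 0.68 (SE 0.109, 1.6-fold), and 0.61 (SE 0.0646) without control library 4. Vim took 0.402%, 0.427% and 0.400% of all counts in co-culture libraries, against 0.199%, 0.259% and 0.260% in control libraries. It ranked 5 by count in all co-culture libraries, and 30, 18 and 18 in control libraries 4 to 6. Per length, Vim was at 2632 ± 97.9 FPKM in co-culture and 1535 ± 224 FPKM in control. It made up 99.64% to 99.68% of the summed FPKM of the 7 filament genes (all members but Plec) in co-culture, and 98.07%, 98.35% and 98.75% in control libraries. Of the leukocyte markers, 9 of 10 of which were in the table, the summed level was 48.6 to 54.8 CPM in co-culture and 65.7 to 120 CPM in control, with Lyz2, Cd68 and Itgam highest. Of 7 tested, 0 rose, 1 fell (Csf1r) and 6 did not pass. Lyz2 had 103 CPM in control library 4, against 49.7 and 56.0 CPM in control libraries 5 and 6. Without control library 4, 0 rose and 2 fell, Lyz2 (edgeR adjusted p 0.0014) being the addition. The part of cell makeup in the Vim difference was not tested.

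Des (chr1:75360292-75368579), which encodes desmin, was barely detected. Its counts were 8, 6 and 11 in co-culture libraries, against 4, 9 and 6 in control libraries, and the groups overlapped. The summed counts were 25 in co-culture and 19 in control, a library-scaled ratio of 1.24 with an exact 95% interval of 0.655 to 2.38, and 1.09 (0.552 to 2.22) without control library 4. These intervals cover counting error only. They describe a selected member and are not a test, and at so few counts a difference in Des is left undetermined. The lncRNA gene Gm15179 overlaps Des, and reads from overlapping genes cannot be separated here. The 9 of 14 striated muscle markers in the table summed to 2.04 to 3.12 CPM in co-culture and 1.43 to 2.35 CPM in control. Tnnt3, Mylpf and Ttn were the highest. The 1 gene tested, Tnnt3, did not pass, and it rose without control library 4 (edgeR adjusted p 0.0435).

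Synm (chr7:67730161-67759742), which encodes synemin, a partner of vimentin and desmin filaments, was higher in co-culture at a low level. Its counts were 107, 89 and 97 in co-culture libraries, against 46, 67 and 69 in control libraries. As CPM these were 5.57, 4.91 and 5.19 in co-culture and 2.84, 3.69 and 3.75 in control, without overlap of the groups. The mean was 5.22 ± 0.333 CPM in co-culture and 3.43 ± 0.507 CPM in control (SD, n = 3 each), a log2 fold change of 0.60 (SE 0.145, 1.52-fold), and 0.49 (SE 0.146) without control library 4. Per length, Synm stood at 0.753 ± 0.0487 FPKM in co-culture and 0.463 ± 0.0980 FPKM in control, far below Vim.

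Nes (chr3:87971093-87980451), which encodes nestin, a filament protein of progenitor cells that also occurs in proliferating smooth muscle, was lower in co-culture. Its level was 16.8, 23.2 and 22.4 CPM in co-culture libraries, against 33.7, 35.1 and 34.1 CPM in control libraries. All 3 co-culture libraries lay below the control libraries, and co-culture library 1 was the lowest. The mean was 20.8 ± 3.51 CPM in co-culture and 34.3 ± 0.729 CPM in control (SD, n = 3 each), a log2 fold change of -0.72 (SE 0.130, 1.65-fold lower), and -0.74 (SE 0.112) without control library 4. Nes had 3.69 ± 0.621 FPKM in co-culture and 5.67 ± 0.498 FPKM in control. The 9 Schwann and neural markers, some of whose cell types also contain nestin, summed to 11.1 to 12.9 CPM in co-culture and 9.18 to 11.9 CPM in control. Mbp, Tubb3 and Ngfr were the most abundant of them and the 3 that were tested: 2 rose and 1 fell. Mbp had a log2 fold change of 0.81 and Tubb3 of 0.83, while Ngfr had -0.95 (edgeR adjusted p 0.0187). Each of these 3 calls was lost when single co-culture libraries were left out, with an edgeR adjusted p of up to 0.0719. Summed over 3 libraries, the transcription factor genes Sox10 and Sox2 had 19 and 16 counts in co-culture, against 41 and 30 counts in control, and Gfap was at 0 in every co-culture library and at most 0.110 CPM in control. The 9 of 10 endothelial markers in the table summed to 9.38 to 9.84 CPM in co-culture and 9.76 to 11.9 CPM in control, with Egfl7, Kdr and Erg highest. Of 4 tested, 0 rose, 1 fell and 3 did not pass; the one that fell was Erg, an endothelial transcription factor gene, with 0.269 ± 0.0981 CPM in co-culture and 1.39 ± 0.374 CPM in control, a log2 fold change of -2.35 (edgeR adjusted p 0.00617). The part of these cells in the Nes difference was not tested.

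Plec (chr15:76170974-76231378), which encodes plectin, was higher in co-culture. Its level was 726, 839.7 and 827 CPM in co-culture libraries, against 489, 548 and 594 CPM in control libraries, and the groups did not overlap. The mean was 797 ± 62.2 CPM in co-culture and 544 ± 52.7 CPM in control (SD, n = 3 each), a log2 fold change of 0.55 (SE 0.106, 1.47-fold), and 0.48 (SE 0.0709) without control library 4. Per length, Plec was at 56.2 ± 4.34 FPKM in co-culture and 35.8 ± 5.70 FPKM in control. The miRNA gene Mir1942 lies within Plec.

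**Figure D1:**
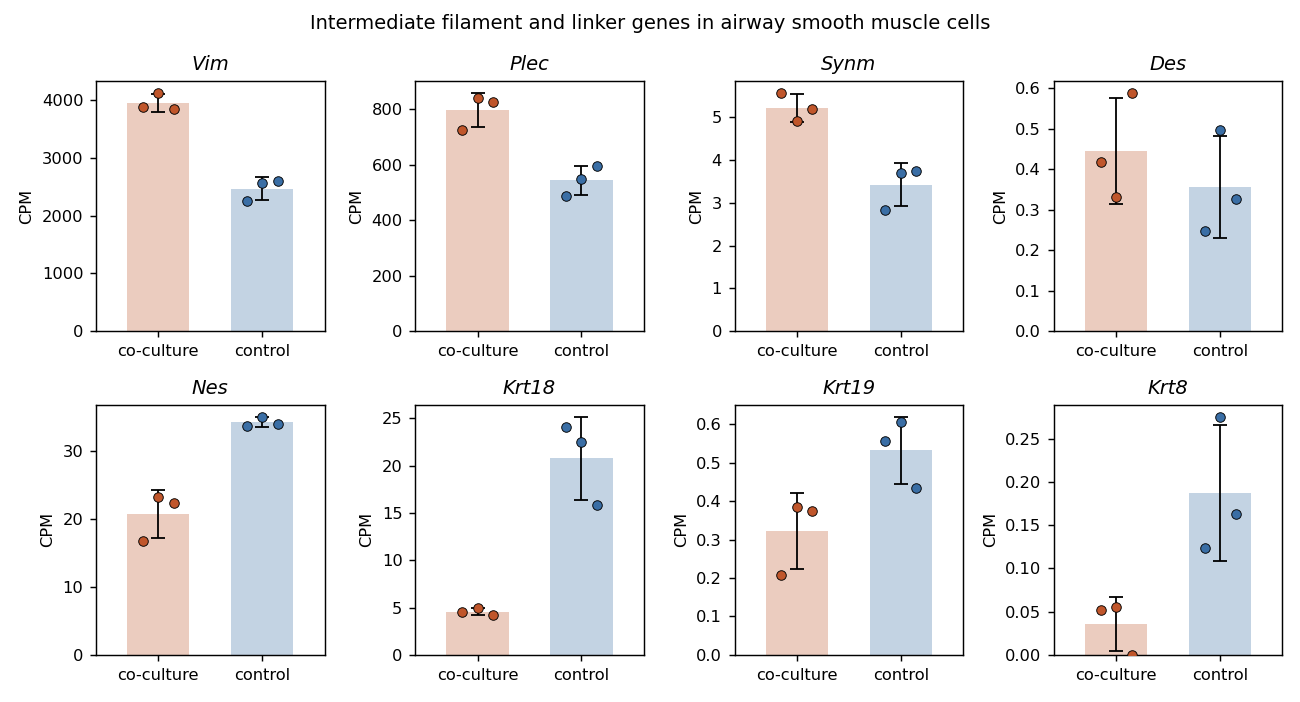
Level of each of the 8 genes in CPM (linear axes from 0), with co-culture on the left and control on the right; points are the 3 libraries of a group, bars their mean and error bars the SD. Vim, Plec and Synm lie higher in co-culture, Nes and Krt18 lower, and Des overlaps between groups.

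Krt18 (chr15:102028216-102032026), the type I keratin of simple epithelia, had the largest fold difference of the 5 members that passed the filter and was lower in co-culture. Its counts were 87, 89 and 78 in co-culture libraries, against 390, 408 and 291 in control libraries. As CPM these were 4.53, 4.91 and 4.17 in co-culture and 24.1, 22.5 and 15.8 in control, and the lowest control library, number 6, was still far above all co-culture libraries. The mean was 4.54 ± 0.369 CPM in co-culture and 20.8 ± 4.39 CPM in control (SD, n = 3 each), a log2 fold change of -2.19 (SE 0.182, 4.57-fold lower), and -2.08 (SE 0.153) without control library 4. Per length, Krt18 was at 4.19 ± 0.338 FPKM in co-culture and 17.7 ± 3.24 FPKM in control. The groups of all 5 members that passed the filter did not overlap, as in 42.9% of all genes tested; the members were selected on these values, and nothing is read from that count.

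Krt8 (chr15:101996711-102004342), the type II partner of Krt18 and its neighbour on chromosome 15, was at the limit of detection. Its counts were 1, 1 and 0 in co-culture libraries, against 2, 5 and 3 in control libraries, so that the groups did not overlap. The sums were 2 in co-culture and 10 in control, a library-scaled ratio of 0.188 (exact 95% interval 0.0201 to 0.884), and 0.163 (0.0169 to 0.818) without control library 4. With so few counts single libraries move the ratio: it was 0.283 without co-culture library 3, 0.247 without control library 5, and 0.139 at the lowest, without co-culture library 2. A pseudogene of Krt8, Krt8-ps, exists, so reads of the 2 may be divided. Krt19 (chr11:100140810-100145926), a type I keratin, had counts of 4, 7 and 7 in co-culture libraries, against 9, 11 and 8 in control libraries, again without overlap. The sums were 18 in co-culture and 28 in control, a ratio of 0.605 (0.315 to 1.13), and 0.618 (0.306 to 1.24) without control library 4. The intervals for Krt8 and Krt19 cover counting error only, describe members selected on these values and are not a test. At so few counts a difference in either gene is left undetermined.

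Keratins among the members and the listed filament genes that were in the table were unevenly divided between the 2 chain types. Other keratin genes were not summed, so type I and type II here refer to these genes only. All 9 type I genes but Krt14 summed to 5.87, 7.31 and 5.65 FPKM in co-culture, against 23.1, 22.8 and 16.3 FPKM in control libraries. All 6 type II genes but Krt5 summed to 1.41, 0.981 and 0.671 FPKM in co-culture, against 1.94, 2.04 and 1.95 FPKM in control libraries. Krt14 and Krt5 had no counts in co-culture libraries, so no length was implied for them and they had no FPKM. In every library the type I sum exceeded the type II sum. Krt18 held 58.4%, 48.9% and 57.4% of type I counts in co-culture libraries, and 72.5%, 82.6% and 79.5% in control libraries.

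Markers of cells that normally hold simple keratins were examined beside Krt18. Of the 33 airway epithelial markers, 28 were in the table, 21 of these were under 1 CPM in every library, and their sum was 36.3 to 37.8 CPM in co-culture and 23.7 to 26.2 CPM in control. Of the 8 tested, 4 rose (Cbr2, Trp63, Spint2 and Muc1), and none fell. Without control library 4, 5 rose, Esrp2 being the addition, and none fell. The Muc1 call ended on leaving out any co-culture library, or control library 5, with an edgeR adjusted p of up to 0.117. Cyp2f2, an enzyme of club cells and the most abundant marker, had 14.5 ± 1.58 CPM in co-culture and 14.5 ± 1.32 CPM in control, and Cbr2 and Esrp2 followed. Cbr2, a carbonyl reductase of lung epithelium, had 7.09 ± 0.697 CPM in co-culture and 0.852 ± 0.186 CPM in control (SD, n = 3 each), a log2 fold change of 3.05 (SE 0.185). Trp63 had 3.20 ± 0.107 CPM in co-culture and 0.825 ± 0.186 CPM in control, a log2 fold change of 1.93. Spint2 had 2.02 ± 0.0679 CPM in co-culture and 0.559 ± 0.233 CPM in control, a log2 fold change of 1.82. Epcam, a defining epithelial gene, was at 0.208 to 0.276 CPM in co-culture and 0.124 to 0.716 CPM in control. The basal cell keratin genes Krt5 and Krt14 were at 0 in all co-culture libraries and at most 0.110 CPM in control. Epcam, Krt5 and Krt14 were all below the filter on low counts. The 8 of 11 mesothelial markers in the table summed to 4.12 to 5.73 CPM in co-culture and 4.68 to 6.05 CPM in control, with Msln, Krt7 and Rspo1 highest. Of 4 tested, 1 rose (Rspo1), none fell and 3 did not pass; Krt7 had 1.25, 0.717 and 0.267 CPM in co-culture and 1.98, 1.38 and 1.63 CPM in control. The part of such cells in the Krt18 difference was not tested.

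Set against Vim within each library, which needs no scaling between libraries, the members showed different patterns. The log2 FPKM ratio of Krt18 to Vim was -9.27, -9.24 and -9.38 in co-culture libraries, against -6.07, -6.36 and -6.89 in control libraries, a difference of -2.86. For Nes it was -9.76, -9.38 and -9.33 in co-culture libraries, against -7.97, -8.10 and -8.16 in control libraries, a difference of -1.42. The ratio of Synm to Vim was -11.65, -11.92 and -11.74 in co-culture libraries, against -11.83, -11.65 and -11.64 in control libraries, a difference of -0.06. For Plec it was -5.66, -5.54 and -5.46 in co-culture libraries, against -5.44, -5.46 and -5.37 in control libraries, a difference of -0.13. The Synm ratios overlapped between groups, whereas those of Krt18 and Nes lay far apart. Without control library 4 the differences were -2.67 for Krt18, -1.36 for Nes, -0.13 for Synm and -0.13 for Plec. These ratios were added after the data had been seen.

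**Figure D2:**
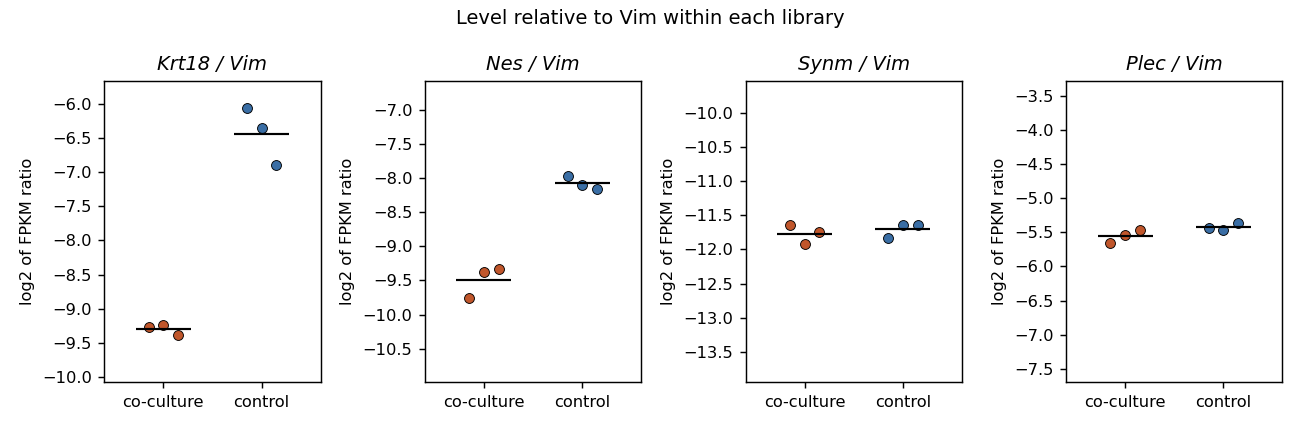
Log2 ratio of the FPKM of each member to that of Vim in the same library, with co-culture on the left and control on the right; points are libraries and lines the mean of 3, and each panel spans the same range of log2 units. Krt18 and Nes lie lower relative to Vim in co-culture, while the Synm values overlap between groups.

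The profiles of Vim, Plec and Synm over the 6 libraries lay closer to one another than to those of Nes or Krt18. This measure follows the difference between groups, on which the members were selected, so nothing further is read from it. The root mean square difference of their row-centred log2 CPM was 0.0901 for Vim and Plec, 0.106 for Vim and Synm and 0.137 for Synm and Plec, against 0.724 for Vim and Nes and 1.45 for Krt18 and Vim. Among 12910 genes compared, all of the same 6 libraries, the nearest to Vim were Gypc, Mfhas1 and Zeb2, at 0.0309, 0.0461 and 0.0471. The nearest to Plec were Runx1, Gm35315 and Adam23, at 0.0265, 0.0362 and 0.0363, and those to Synm were Aldh1l1, Ets2 and Syt11, at 0.0351, 0.0423 and 0.0453. For Nes they were Epas1, Abhd15 and Cplx2, at 0.0534, 0.0605 and 0.0689. Krt18 had less similar neighbours, Cdh10, Rgs2 and C1qtnf2, at 0.162, 0.183 and 0.185.

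Plec has several alternative first exons, and its 12 transcripts in the transcript table began at 10 start sites when starts within 10 bases were merged. Positions refer to the minus strand of chromosome 15, and names are those of GENCODE. These transcripts overlap almost completely, so the division of reads among them is uncertain. Plec-201, starting at position 76195710, took 30.2%, 26.3% and 32.4% of Plec counts in co-culture libraries, against 31.3%, 34.1% and 32.2% in control libraries, and the groups overlapped. Plec-209, the most upstream start at 76231378, took 14.4%, 15.3% and 16.6% in co-culture libraries, against 27.6%, 20.7% and 20.6% in control libraries, without overlap. Its absolute level was 123 ± 16.96 CPM in co-culture and 124 ± 10.7 CPM in control (SD, n = 3 each). Plec-204, at 76198209, took 27.5%, 26.8% and 20.5% in co-culture libraries, against 14.4%, 10.1% and 20.8% in control libraries, and the groups overlapped. Plec-218 and Plec-202, which share the start at 76199835, took 6.75%, 11.3% and 6.09% in co-culture libraries, against 4.47%, 3.41% and 3.43% in control libraries, without overlap. That start had 64.8 ± 26.2 CPM in co-culture and 20.3 ± 1.59 CPM in control. Plec-206 at 76229497 had 16.7%, 8.69% and 18.7% in co-culture libraries and 12.5%, 23.0% and 15.5% in control libraries. Plec-207 and Plec-205 at 76206322 had 4.56%, 9.67% and 5.77% in co-culture libraries and 8.64%, 8.62% and 4.83% in control libraries. Both of these overlapped, and the other 4 starts took at most 1.63% in any library.

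**Figure D3:**
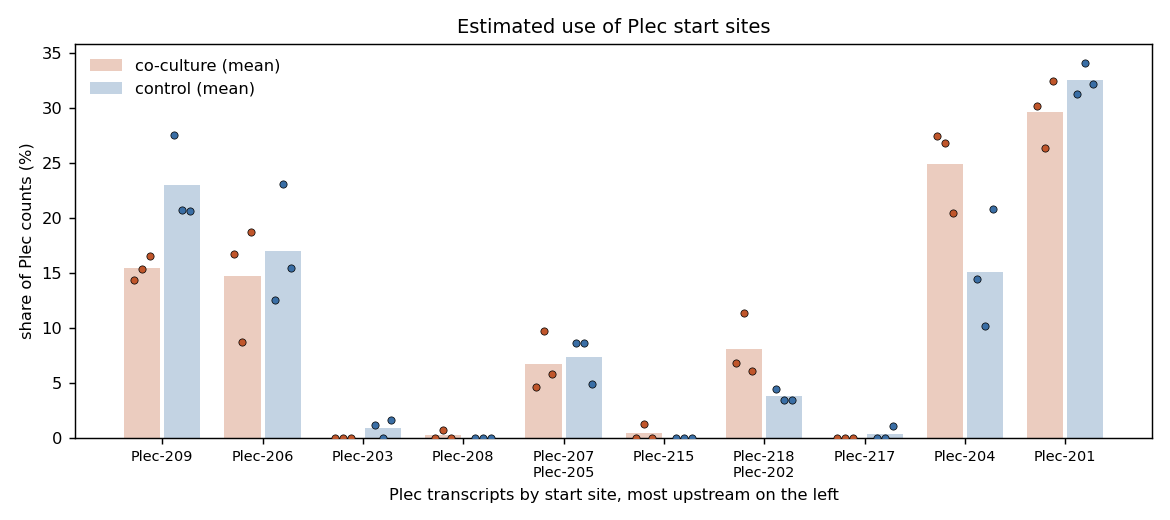
Share of Plec estimated counts assigned to each transcript start site (percent), with co-culture bars left of control bars; bars are means of 3 libraries and points the libraries. The share of Plec-209 is lower and that of Plec-218 and Plec-202 higher in co-culture, and the other starts overlap between groups.

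The other intermediate filament genes, a list of 33 of which 23 were in the table, mostly lay at very low levels: 14 were under 1 CPM in every library. Of the 8 that were tested, 0 rose, 1 fell and 7 did not pass, against 20.6% of all genes called, and the median log2 difference was -0.13, against -0.041 over all genes. Without control library 4, 1 rose (Lmna) and 1 fell. Krt80, an epithelial type II keratin, fell: it had 0.989, 0.883 and 1.07 CPM in co-culture libraries, against 1.67, 2.15 and 1.58 CPM in control libraries. Its log2 fold change was -0.87 (SE 0.206), with an adjusted p of 0.0283 by edgeR's quasi-likelihood test with Benjamini-Hochberg adjustment. Leaving out any of the other 5 libraries, all but control library 4, ended this call, with an edgeR adjusted p of up to 0.0986. Lmna, which encodes the nuclear lamins A and C, had 513, 534 and 525 CPM in co-culture libraries, against 402, 479 and 462 CPM in control libraries, and its adjusted p was 0.118 by edgeR's quasi-likelihood test. The B-type lamins Lmnb1 and Lmnb2 had log2 fold changes of 0.01 (SE 0.0593) and -0.10 (SE 0.119), whose signs changed when single libraries were left out.

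Genes that anchor filaments or fold and turn over filament proteins were listed together. The list also held actin and focal adhesion genes, such as Zyx, Vcl, Tln1 and Flna. Its genes moved in both directions. Of 40 listed, 39 were in the table and 35 were tested: 4 rose, 7 fell and 24 did not pass, where 10.3% of all genes tested were called higher and 10.3% lower. The median log2 fold change was -0.05, against -0.041 for all genes. Without control library 4, 6 of the list rose and 11 fell, and over all genes 2445 were higher and 2598 lower. Ppl, which encodes periplakin, a plakin of epithelial filaments, rose: it had 13.5, 16.7 and 15.8 CPM in co-culture libraries, against 4.20, 4.57 and 5.27 CPM in control libraries. Its log2 fold change was 1.71 (SE 0.132, adjusted p 0.000481 by edgeR's quasi-likelihood test with Benjamini-Hochberg adjustment). Eppk1, which encodes epiplakin, rose at a low level, with 0.781, 0.993 and 0.962 CPM in co-culture libraries, against 0.309, 0.110 and 0.163 CPM in control libraries, a log2 fold change of 2.22 (SE 0.375, edgeR adjusted p 0.00867). Syne3 and Syne1, which encode nesprins that join filaments or actin to the nuclear envelope, rose as well. Syne3 averaged 52.7 ± 5.69 CPM in co-culture and 29.5 ± 3.73 CPM in control, a log2 fold change of 0.84 (SE 0.124, edgeR adjusted p 0.00533). Syne1 averaged 250.5 ± 30.7 CPM in co-culture and 170.0 ± 9.32 CPM in control, a log2 fold change of 0.56 (SE 0.104, edgeR adjusted p 0.0122), and lost its call without co-culture library 2 or 3, with an adjusted p of up to 0.0561.

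Among the genes that fell, Jup encodes plakoglobin, which links desmosomes and adherens junctions to the cytoskeleton. It had 30.04, 32.8 and 31.5 CPM in co-culture libraries, against 50.4, 66.5 and 62.4 CPM in control libraries, a log2 fold change of -0.93 (SE 0.112, edgeR adjusted p 0.00244). Hspb1, a small heat shock protein that binds filament proteins, had 21.1, 21.3 and 19.5 CPM in co-culture libraries, against 38.1, 40.9 and 37.5 CPM in control libraries, a log2 fold change of -0.91 (SE 0.0769, edgeR adjusted p 0.000648). For these 2 genes the groups did not overlap. Dmd, which encodes dystrophin, averaged 1.82 ± 0.164 CPM in co-culture and 3.12 ± 0.523 CPM in control, a log2 fold change of -0.78 (SE 0.179, edgeR adjusted p 0.0255), and lost its call when any library but control library 4 was left out. Zyx, which encodes the focal adhesion protein zyxin, averaged 324 ± 7.54 CPM in co-culture and 497 ± 67.1 CPM in control, a log2 fold change of -0.62 (SE 0.109, edgeR adjusted p 0.0102), and lost its call without co-culture library 1 or 3. The remaining 3 that fell, named after their values were seen, were Itgb1, Vcl and Hspb8, and each lost its call when co-culture library 1, 2 or 3 or control library 5 was left out; Itgb1 and Vcl also lost it without control library 6. The plakins Dst and Macf1, relatives of Plec, had log2 fold changes of -0.11 (SE 0.113) and 0.06 (SE 0.0974). The hemidesmosomal integrin gene Itgb4, a partner of plectin, had 0.89 (SE 0.263, edgeR adjusted p 0.0561). Without control library 4, Itgb4 was called higher (edgeR adjusted p 0.0359).

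**Figure D4:**
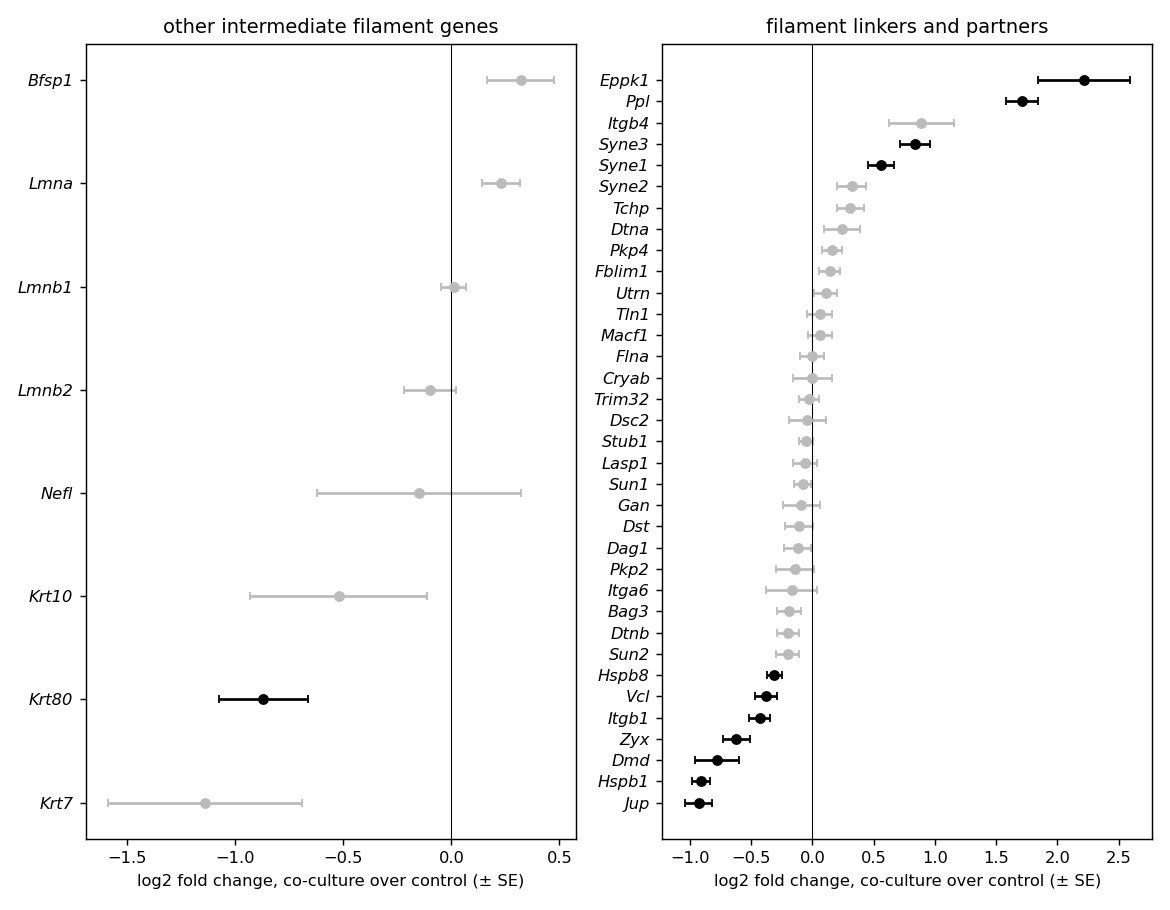
Log2 fold change of co-culture over control with its SE for the tested genes of 2 lists, other intermediate filament genes on the left and filament linkers and partners on the right; black marks an adjusted p under the threshold of 0.05 by edgeR's quasi-likelihood test. Ppl and Eppk1 lie highest among the linkers, and Jup and Hspb1 lowest.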

How the data were processed

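RNA of 3 co-culture and 3 control libraries of mouse ASMC was analysed. The deposited tables hold estimated counts per gene and transcript, made by the authors. HISAT was the aligner, per the labels' protocols, and mm10 the build, per the submitters' processing notes. Which counter, annotation, kit and strand setting were used is not given in the sources used here. FPKM were deposited beside the counts, per the file headers. The 12 control FPKM and TPM columns were not used, and FPKM of all libraries were computed from the counts and the lengths implied by the co-culture columns (median absolute log2 difference 0.00514 for genes at 1 FPKM or more). Control columns are numbered 4 to 6 while the labels number controls from 1, so each was assigned to its group only.

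Estimated counts were rounded and tested with edgeR 4.0.16 in R 4.3.3 (filterByExpr, TMM, quasi-likelihood, two-sided, Benjamini-Hochberg over 12936 genes, called at an adjusted p under 0.05). SE was computed as |log2 fold change| over the root of the F statistic. The procedure was tested on simulated data. Intervals for genes below the filter are exact conditional binomial and cover counting error only. DESeq2 1.42.0, limma 3.58.1 on log2 of FPKM plus 1 or 0.1, no filter, and leaving out each library were alternatives. Gene IDs were matched to a RefSeq table of GRCm38.p6 (16975 found, 99.7%), and transcript starts to GENCODE M21. Named genes were the 8 members, up to 4 called genes with the largest fold change per direction in each of the 2 lists, the 3 most abundant of each marker list, and the 3 nearest profiles of each member. The other list genes named (among them Acta2, Myh11, Tagln, Cnn1, Myocd, Epcam, Krt5, Krt14, Trp63, Spint2, Muc1, Gfap, Sox10, Sox2, Csf1r, Lmna, Lmnb1, Lmnb2, Dst, Macf1 and Itgb4) fall outside that rule and were chosen after their values were seen. A further gene of the Schwann and neural list is not reported here. Members, lists and motifs were chosen with earlier results of these data known.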

Additional observations from a re-analysis of the deposited data

How the results depend on the processing

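No called result among those reported reversed. Leaving out 1 library changed the sign of small uncalled differences, among them the Synm to Vim ratio (-0.13 to 0.01, log2), the Plec-206 share (-4.55 to 0.699 percentage points), Lmnb1 (-0.02 to 0.04), Lmnb2 (-0.20 to 0.03) and Macf1 (-0.01 to 0.16). The members' log2 fold changes kept their direction when each library was left out: Krt18 -2.33 to -2.08, Vim 0.61 to 0.74, Nes -0.81 to -0.59, Synm 0.49 to 0.69 and Plec 0.48 to 0.64. On log2(FPKM + 1), Krt18 was -1.84, Vim 0.79, Nes -0.51 and Synm 0.26, and on log2(FPKM + 0.1) Vim was 0.79. A pseudocount shrinks the difference of low genes by construction. FPKM also lack the TMM factors, which were 1.0368 to 1.0388 in co-culture and 0.8855 to 1.0098 in control libraries. Leaving those factors out raises every log2 difference by construction, that of Vim included. The size of each part was not tested. Leaving out 1 library, 612 to 2445 of all genes were called higher and 598 to 2598 lower, with the highest counts without control library 4; on log2(FPKM + 1) and log2(FPKM + 0.1), 656 and 663 were lower. In the other intermediate filament genes, 0 to 1 rose and 0 to 1 fell with 1 library left out, and 2 fell with no filter and 0 on log2(FPKM + 1). In the linkers, 2 to 11 fell with 1 library left out, 11 without control library 4, and 2 on either FPKM scale. On log2(FPKM + 1) and log2(FPKM + 0.1), calls were lost by Eppk1 (adjusted p 0.211 and 0.0520 by limma), Zyx (0.0705 and 0.0704) and Dmd (0.0831 and 0.0867), and on log2(FPKM + 1) by Krt80 (0.0528). By the DESeq2 Wald test, Krt80 (adjusted p 0.115) and Dmd (0.0654) lost theirs. No paired analysis was possible because the control columns, numbered 4 to 6, carry none of the labelled replicate numbers. Low counts limit Des, Krt19 and Krt8.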
